A study of Mus musculus with 6 samples.

Results

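Phlda1, Phlda2 and Phlda3 are the genes of the pleckstrin homology-like domain family A, small proteins built around a lipid-binding domain of the kind first described in pleckstrin. They were followed here in Ba/F3-N cells, a mouse bone marrow-derived Ba/F3 line made to carry the oncogenic NRAS-G12D form, in 2 groups. Cells of the first group were given 1 µM N-arachidonoyl dopamine (NADA), a conjugate of arachidonic acid and dopamine, and cells of the second an equal volume of vehicle, both for 12 hours. NRAS-G12D is present in both groups, and the labels name no line without it. RNA of 3 samples per group was read on Affymetrix Mouse Genome 430 2.0 arrays, 1 array per sample, and the comparison asks which transcripts of NRAS-driven cells differ after NADA.

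The members were found as the probe sets that the platform annotation pairs with exactly 1 gene, that gene being in the family. There were 3, 1 for each gene, among 18193 genes with such a probe set and 45037 probe sets that are not controls: 1418835_at for Phlda1, 1417837_at for Phlda2 and 1449002_at for Phlda3. With a single probe set per gene, no second reading of a member exists on the array. The family was chosen by its log2 intensities in the 3 NADA and 3 vehicle arrays, the values given below, so those of its members are a description with no test.

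Proteins of this family bind phosphoinositides, the membrane lipids that PI3-kinase modifies and that recruit the kinase AKT. PHLDA1, also called TDAG51, was found in mouse T cells as a gene linked to the death receptor Fas, and its mRNA is commonly read as an output of RAF-MEK-ERK signalling. It is also reported to be induced when the endoplasmic reticulum is stressed. PHLDA2 is imprinted, expressed from the maternal chromosome, and restrains growth of the placenta. PHLDA3 is a target of p53 and competes with AKT for membrane lipids, which lowers AKT activity.

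Among the 3 genes, Phlda1 alone had NADA values apart from all vehicle values. The NADA arrays read intensities of 438, 552 and 575, and the vehicle arrays 128, 122 and 124. The lowest NADA array read 3.43 times the highest vehicle array, and the groups did not overlap. The means were 521 ± 73.3 in NADA and 124 ± 3.15 in vehicle (SD, n = 3 each), a log2 fold change of 2.06 ± 0.08 (standard error of the fit) or 4.17-fold. That value was the 67th highest of 10526 genes tested, above 99.4% of them.

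The NADA samples were less uniform for Phlda1 than the vehicle samples. On the log2 scale the SD was 0.21 in NADA and 0.04 in vehicle, and 98.6% of the genes tested had a smaller SD between the NADA arrays, against 35.3% between the vehicle arrays. NADA replicate 1 was the low array, at 1.82 log2 above the vehicle mean, whereas replicates 2 and 3 stood 2.15 and 2.21 above it. Without that array the log2 fold change was 2.18.

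Phlda3 was level between the groups. The NADA arrays read 125, 147 and 134 and the vehicle arrays 126, 138 and 140, and the vehicle range lay within the NADA range. The log2 fold change was 0.01 ± 0.07, close to the median of 0.01 over all genes tested, and 49.8% of these genes had a lower value. Means were 135 ± 11.3 in NADA and 134 ± 7.33 in vehicle (SD, n = 3 each).

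Phlda2 was dim in both groups. The NADA arrays read 25.9, 32.3 and 30.8 and the vehicle arrays 37.2, 36.4 and 32.3, every one under 38.64, the median over all probe sets that was used as the dim limit. The highest NADA array and the lowest vehicle array had the same value, so the groups met without being separated. The log2 fold change, taken from the fit of all probe sets because Phlda2 did not enter the test, was -0.25 ± 0.10, and -0.16 without NADA replicate 1. No detection calls were used here, so whether the transcript was present is not known. With a floor of 50 applied before log2, no difference remains by construction.

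**Figure D1:**
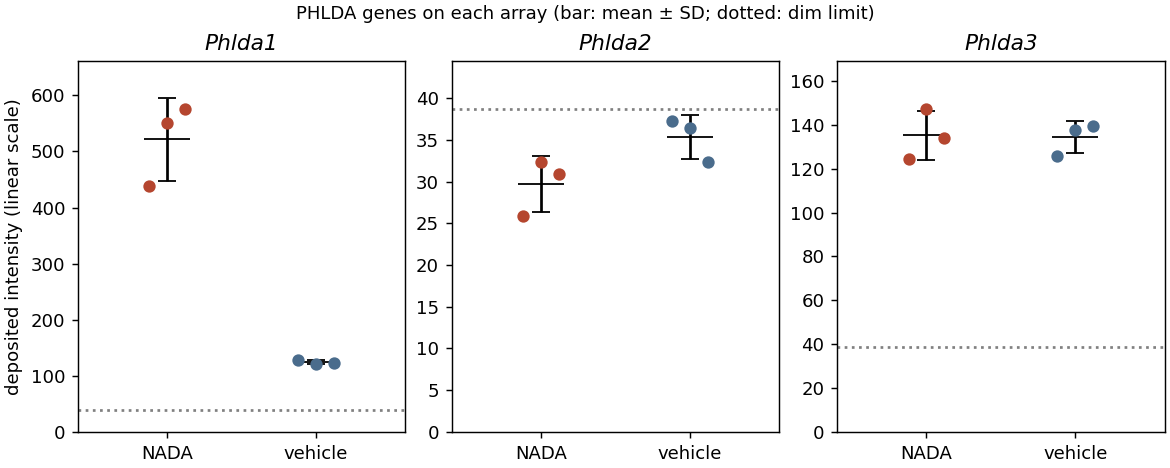
Deposited intensity on a linear scale for Phlda1, Phlda2 and Phlda3, with 1 point per array, NADA left of vehicle, and bars for the mean ± SD of 3 arrays. The NADA points of Phlda1 lie between 438 and 575 and its vehicle points between 122 and 128, the points of Phlda3 overlap, and those of Phlda2 all lie under the dotted dim limit of 38.64.

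NADA replicate 1 was the lowest NADA array for each of the 3 members. Over all genes tested, that array was the lowest of the NADA arrays in 24.3%, replicate 2 in 23% and replicate 3 in 52.7%. The members thus did not share the array that was lowest most often. Among the vehicle arrays the lowest was replicate 2 for Phlda1, replicate 3 for Phlda2 and replicate 1 for Phlda3, with no common array.

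Of the 2 members that passed the dim filter, Phlda1 was among the genes called higher in NADA at a Benjamini-Hochberg adjusted p under 0.05 by limma, and Phlda3 was not called. Calls were common in this comparison: 73.3% of the genes tested were called in either direction, 35.8% higher and 37.5% lower, and in 75.9% the groups did not overlap. Nothing is read from the members' count against these shares, since the same contrast led to the choice of the family. A call with a change of at least 2-fold, which Phlda1 also had, was made for 10.9% of the genes.

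**Figure D2:**
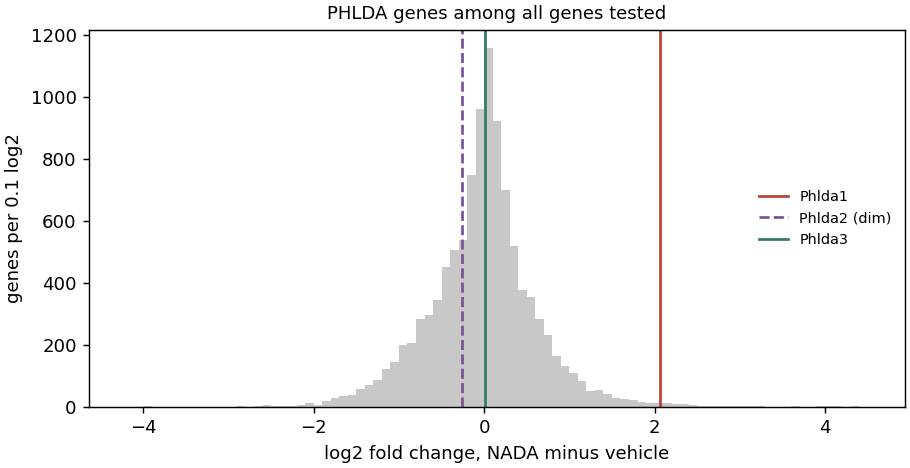
Number of genes tested per 0.1 step of log2 fold change (NADA minus vehicle), with vertical lines at the PHLDA genes. Phlda1 stands at 2.06 in the upper tail, Phlda3 at 0.01 in the centre, and Phlda2, dim and not among the genes counted, at -0.25 (dashed).

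The arrays of the groups differed in ways that touch each of these values. The bacterial poly-A control RNAs, added before labelling, averaged 8.72 ± 0.21 log2 in NADA and 8.14 ± 0.01 in vehicle (SD, n = 3 each), and the 3' minus 5' log2 difference of the actin control was 1.06 ± 0.05 in NADA and 0.67 ± 0.04 in vehicle. Scaling to the poly-A controls moved the median of all genes tested to -0.57 and the calls to 733 higher and 8009 lower, against 3768 higher and 3951 lower with the values as deposited. Under that scaling Phlda1 was at 1.48 and still called higher, Phlda3 was at -0.57 and called lower, and Phlda2 was at -0.83. Relative to the median of all genes Phlda1 stood at 2.05, Phlda3 at -0.002 and Phlda2 at -0.26 under both scalings. This sameness holds by construction, since the scaling shifts all genes of an array by the same amount. The part of the labelling difference in these values was not tested. Correlations across genes were 0.9972 to 0.9984 within groups and 0.9361 to 0.9395 between them. Of 15 markers of pro-B and Ba/F3 cells on the array, 6 were above the dim limit in each group, among them both interleukin-3 receptor beta chains, while Cd79a, Vpreb1, Pax5 and Ebf1 were not. The summed intensity of these 15 ran from 13827 to 13900 in NADA and from 6029.6 to 6263 in vehicle, the widest difference of the 5 marker lists. Summed macrophage and granulocyte markers ran from 1439 to 1521 in NADA and from 1159 to 1190 in vehicle, with 4 of 7 above the limit and Itgam, Elane and Mpo below it in both groups. Erythroid markers, with 1 of 3 above the limit and Hba-a1 and Alas2 below it, summed to 156 to 162 in NADA and 115 to 118 in vehicle. T and NK cell markers, with Cd3e alone above the limit, summed to 143 to 153 in NADA and 145 to 156 in vehicle. Fibroblast, epithelial and endothelial markers, with 2 of 8 above the limit in NADA and 3 in vehicle, summed to 284 to 305 in NADA and 306 to 321 in vehicle. The part of these marker differences in the PHLDA values was not tested. Since RNA came from whole cultures, fewer cells with a transcript and less of it per cell cannot be told apart.

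Phlda1 was higher in NADA while most of the genes with which it is usually grouped as an ERK output fell. Of 18 other such genes on the array 15 were tested, of which 10 fell, 3 rose and 2 were not called. Over all genes tested 37.5% were called lower and 35.8% higher. The median log2 fold change of the 15 was -0.73. All 15 had a lower log2 fold change than Phlda1, as had 99.4% of all genes tested, and the highest of the 15 was 0.85. The ETS factor gene Etv5 fell to an intensity of 59.6 in NADA, against 373 in vehicle (-2.65 ± 0.07, limma adjusted p = 7.88e-15). Cyclin D1 (Ccnd1) fell to 107 in NADA, against 349 in vehicle (-1.71 ± 0.06), and the MAP kinase phosphatase gene Dusp4 to 350, against 733 (-1.07 ± 0.04). Spred2, an inhibitor of RAS to RAF signalling, changed by -1.03 ± 0.04, and by -0.53 with all its probe sets averaged. Smaller falls, picked after their values were seen, were those of Myc (-0.34 ± 0.04) and Dusp6 (-0.15 ± 0.03). Fos was not called (-0.05 ± 0.04). The 3 that rose, named after their values were seen, were Ier3 (0.85 ± 0.05), Egr1 (0.78 ± 0.10) and Spry1 (0.21 ± 0.09, adjusted p = 0.0472, with overlapping groups). The call of Spry1 was lost without NADA replicate 2 (0.19) or 3 (0.15) and without vehicle replicate 1 (0.23) or 3 (0.16), and Egr1 was at 0.17 and not called with a floor of 50. Scaled to the poly-A controls, 1 of the 15 was called higher and 13 lower.

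Genes of endoplasmic reticulum and integrated stress, the other setting in which TDAG51 is known, were mostly called higher. The list, like the others, was chosen with earlier results of these data known, and a link to Phlda1 was not tested. It also holds heat shock genes, of which Dnajb1 was tested and rose. Of 16 tested among 20 on the array, 15 rose and 1 fell, beside 35.8% higher and 37.5% lower over all genes tested. The median log2 fold change of the 16 was 1.02. Two-sided limma tests placed the transcription factor CHOP (Ddit3) first, with a mean intensity of 1384 in NADA and 217 in vehicle (2.67 ± 0.05, adjusted p = 4.01e-16). Herpud1, a factor of protein degradation at the endoplasmic reticulum, rose by 2.03 ± 0.04. The pseudokinase gene Trib3, read by a probe set that can bind several transcripts, rose by 2.32 ± 0.05 and the co-chaperone gene Dnajb9 by 1.71 ± 0.04. The 1 that fell, named after its value was seen, was asparagine synthetase (Asns, -0.45 ± 0.04). Scaled to the poly-A controls, 10 were called higher and 2 lower.

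Phlda3, level between the groups, belongs to the p53 targets. Of 22 others tested among 27 on the array, 13 rose, 6 fell and 3 were not called. Their median log2 fold change was 0.41. The comparison called 73.3% of all genes tested, 35.8% higher and 37.5% lower. Of the 22, 0 had a log2 fold change nearer to 0 than that of Phlda3. The same held in every other list, and that value was part of the choice of the family, so nothing is read from it. Trp53inp1, a stress protein that promotes p53 activity, averaged 2080 in NADA and 247 in vehicle (3.07 ± 0.04, adjusted p = 3.67e-17). Fas, the death receptor to which Phlda1 was first linked, averaged 166 in NADA and 32.04 in vehicle (2.37 ± 0.08, adjusted p = 1.44e-13). Its vehicle mean lay under the dim limit of 38.64, so the size of this difference rests partly on dim signal. With a floor of 50 the log2 fold change of Fas was smaller, and the gene was still called higher. The growth arrest gene Gadd45a rose by 2.33 ± 0.07 and the CDK inhibitor gene Cdkn1a by 1.12 ± 0.04. Scaled to the poly-A controls, 5 of the 22 were called higher and 10 lower.

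Genes of the AKT step on which PHLDA3 acts were called in both directions. All 20 on the array were tested, of which 10 rose, 7 fell and 3 were not called, beside 35.8% higher and 37.5% lower over all genes tested, and the median was 0.03, against 0.01 over all genes. Pik3ip1, an inhibitor of PI3-kinase, averaged 548 in NADA and 58.5 in vehicle (3.23 ± 0.08, adjusted p = 5.91e-15). The kinase gene Akt1 fell to 222 in NADA, against 422 in vehicle (-0.93 ± 0.05, adjusted p = 3.27e-11). Inpp5d (SHIP1) and Inpp4b, phosphatases that remove phosphate from phosphoinositides, rose by 0.71 ± 0.04 and 0.76 ± 0.06. With all probe sets averaged Inpp5d was at 0.46, and scaled to the poly-A controls Inpp5d (0.13) and Inpp4b (0.19) were no longer called. Under that scaling 1 of the 20 was called higher and 16 lower.

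Genes of other proteins with pleckstrin homology domains gave a range in which the place of Phlda1 can be seen. Of 17 tested among 24 on the array, 9 rose, 4 fell and 4 were not called (median 0.13). The shares over all genes tested were 35.8% higher and 37.5% lower. Of the 17, 0 reached the log2 fold change of Phlda1, which lay above 99.4% of all genes tested. The B cell adaptor gene Dapp1 averaged 764 in NADA and 226 in vehicle (1.76 ± 0.04, adjusted p = 9.25e-15). The docking protein gene Gab2 averaged 571 in NADA and 171 in vehicle (1.74 ± 0.05, and 0.91 with all its probe sets averaged). The adaptor gene Skap2 rose by 0.55 ± 0.03 and pleckstrin itself (Plek) by 0.61 ± 0.04. Scaled to the poly-A controls 2 of the 17 were called higher and 11 lower, with Skap2 at -0.03 and Plek at 0.03.

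**Figure D3:**
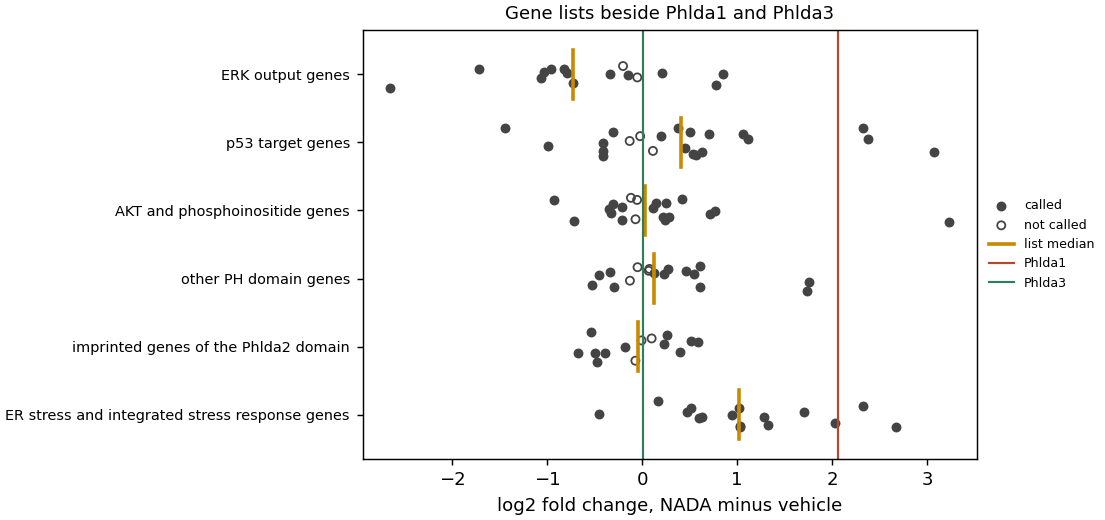
Log2 fold change (NADA minus vehicle) of each tested gene of 6 lists, filled where called and open where not, with the median of each list and vertical lines at Phlda1 (2.06) and Phlda3 (0.01). Every ERK output gene lies left of Phlda1, and the list of stress genes has its median at 1.02.

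Phlda2 belongs to the imprinted cluster on distal mouse chromosome 7, and the other genes in or beside it were called in both directions at shares near those of all genes tested (35.8% higher and 37.5% lower). Of 14 tested among 22 on the array, 5 rose, 6 fell and 3 were not called, with a median log2 fold change of -0.04. Nap1l4, a nucleosome assembly gene next to Phlda2, fell to 692 in NADA, against 1106 in vehicle (-0.68 ± 0.04, adjusted p = 7.72e-11). The mitochondrial ribosomal protein gene Mrpl23 changed by -0.39 ± 0.04. Tspan32, a tetraspanin gene, rose by 0.59 ± 0.05 (0.36 with all its probe sets averaged). Kcnq1ot1, the long non-coding RNA that silences genes of the cluster on the paternal chromosome, rose by 0.52 ± 0.04. It lies within Kcnq1 on the other strand, and whether its probe set reads it alone was not checked here. Scaled to the poly-A controls, 11 of the 14 were called lower, with Tspan32 at 0.01 and Kcnq1ot1 at -0.06.

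The genes beside Phlda1 all had a lower log2 fold change, as had 99.4% of all genes tested, so nothing is read from this. Beside Phlda2 and Phlda3, whose values lie nearer the median of all genes, some had a value within the standard errors of the member's own. Among them were Cars (-0.18 ± 0.06) and Tnnt2 (0.03 ± 0.11, dim). Over all genes tested 35.8% were called higher and 37.5% lower. The order of the neighbours was taken from a RefSeq table of GRCm38.p6, used for names and order only, with 3 genes on each side that have a probe set. Around Phlda1 on chromosome 10, the nucleosome assembly gene Nap1l1 (-0.67 ± 0.03, adjusted p = 9.40e-12) and the ribosome assembly gene Krr1 (-0.43 ± 0.04) fell. On the same stretch Glipr1 (1.18 ± 0.03, and 0.61 with all its probe sets averaged), Bbs10 (0.48 ± 0.08) and the oxysterol-binding protein gene Osbpl8 (0.15 ± 0.04, and 0.10 without NADA replicate 3) rose. The remaining neighbour, 4933440J02Rik, was dim. Around Phlda2, the CDK inhibitor gene Cdkn1c, also imprinted, was dim in both groups (14.9 in NADA and 14.4 in vehicle), as was 4933417O13Rik. The transporter gene Slc22a18 on one side rose by 0.40 ± 0.07 (0.92 with all its probe sets averaged), while Nap1l4 and the cysteinyl-tRNA synthetase gene Cars (-0.18 ± 0.06, adjusted p = 0.0188) on the other fell. The call of Cars was lost without NADA replicate 3 (-0.14), without vehicle replicate 1 (-0.13) and with all its probe sets averaged (-0.12). Tnfrsf22 was not called (-0.01 ± 0.10). Around Phlda3 on chromosome 1, Nav1 fell (-0.73 ± 0.05), Csrp1 rose (0.15 ± 0.05, adjusted p = 0.0131) and the other 4, among them the troponin genes Tnni1 and Tnnt2, were dim. The call of Csrp1 was lost without NADA replicate 2 (0.13), without vehicle replicate 2 (0.12) and with all its probe sets averaged (0.06).

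**Figure D4:**
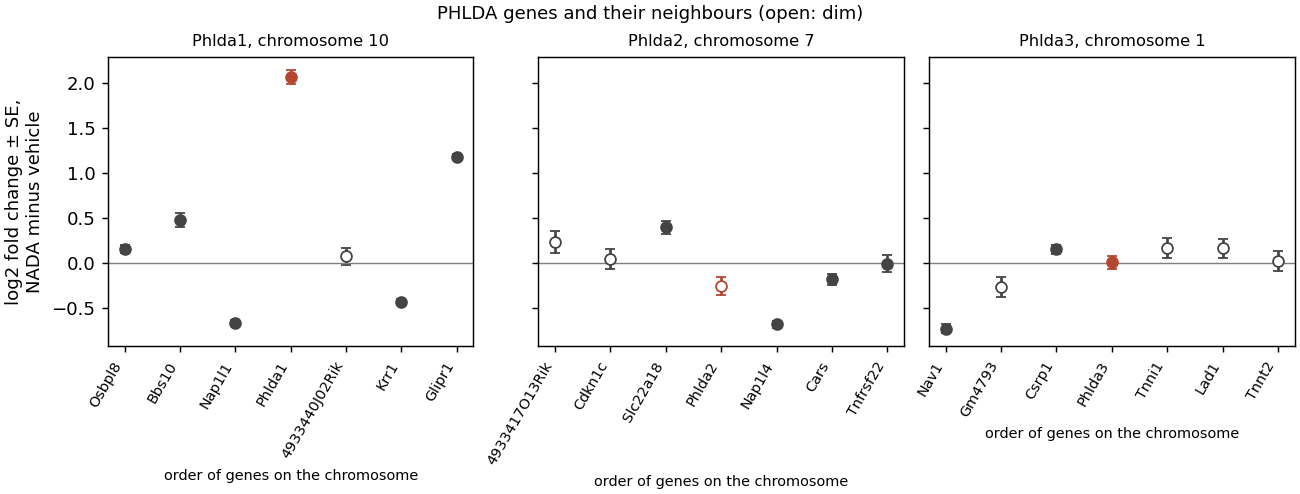
Log2 fold change ± standard error (NADA minus vehicle) of each PHLDA gene (red) and of 3 genes on each side with a probe set, in chromosome order with no distances, open where dim. Phlda1 at 2.06 stands above its neighbours, which run from -0.67 to 1.18, as it does above 99.4% of all genes tested. Phlda3 at 0.01 lies in order between neighbours at 0.15 and 0.17.

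The genes whose course over the 6 arrays was most like that of each member were found by the root mean square difference of log2 values, each taken relative to the mean of the vehicle arrays. For Phlda1 these were the glutathione transferase gene Gstm1 (difference 0.11, log2 fold change 2.12, from a probe set that can bind several transcripts), the cytokine gene Il6 (0.11 and 2.17) and Cd200r4 (0.12 and 2.15). Nearest to Phlda3 were Foxh1 (0.02 and 0.03), Vmn1r44 (0.03 and -0.01) and Pkp3 (0.04 and -0.01). The dim Phlda2 was nearest to Camk2n2 (0.05 and -0.23), Fgfr3 (0.06 and -0.29) and Kcnk5 (0.06 and -0.29). As 3 of the 6 arrays are vehicle arrays at about 0, this likeness mostly matches the size of the difference.

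Start-site sequences of 2 of the 3 members, Phlda2 and Phlda3, are held in the RefSeq promoter table of GRCm38.p6, from 250 bases before to 50 bases after the gene's start. They are shown because these genes, the dim and the level member, lie in the groups of imprinted and p53-controlled genes described above. Both windows hold 26 CpG pairs, more than 83.1% of all 32851 windows, and their GC content is 65.7% for Phlda2 and 71.7% for Phlda3, with a median of 52.7% over all windows. The Phlda2 window is chr7:143502475-143502774 on the minus strand and the Phlda3 window chr1:135765835-135766134 on the plus strand, each printed 5′ to 3′ on the gene's strand. Capitals mark the only motif match, the CRE core.
Phlda2: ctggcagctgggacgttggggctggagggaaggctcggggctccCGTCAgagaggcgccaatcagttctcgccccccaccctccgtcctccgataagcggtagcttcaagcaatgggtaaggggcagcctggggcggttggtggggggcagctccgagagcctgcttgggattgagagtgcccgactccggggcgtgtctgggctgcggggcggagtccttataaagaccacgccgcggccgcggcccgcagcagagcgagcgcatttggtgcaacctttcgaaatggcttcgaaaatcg
Phlda3: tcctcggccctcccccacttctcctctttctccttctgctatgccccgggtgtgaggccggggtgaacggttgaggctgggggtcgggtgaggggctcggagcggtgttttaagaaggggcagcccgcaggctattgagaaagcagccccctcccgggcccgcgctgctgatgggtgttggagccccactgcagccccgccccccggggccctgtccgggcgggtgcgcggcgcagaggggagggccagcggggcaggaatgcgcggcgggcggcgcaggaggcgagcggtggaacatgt

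Motifs were searched on both strands. The CRE core, TGACG, was found once in the Phlda2 window, on the strand opposite to the gene, and is in 20.8% of all windows. Neither window held the AP-1 motif TGANTCA (7.81% of all windows), the full CRE TGACGTCA, which holds that core (1.79%), the ETS motif CCGGAAG (8.86%), the heat shock motif GAANNTTC (7.86%) or the ATF4 composite motif TGATGNAA (3.97%). Also without a match were the interferon response motif (3.44%), the CArG box (1.63%) and the p53 decamer, 1 of the repeats that make up a p53 site (8.36%). These matches describe the letters in the windows only.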

How the data were processed

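RNA of 6 samples was measured on Affymetrix arrays, 1 array per sample. The authors deposited intensity values on a linear scale for 45101 probe sets, running from 2.19 to 20113, with array medians of 38.04 to 39.23. The scale was read from the values. Per the submitters' processing notes, MAS5 and RMA were involved, without version or role, and no detection calls were used here. A normalization that sets array medians equal hides a change shared by most transcripts.

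The groups were taken from the sample titles. No label names a batch or separate cultures, so the p-values rest on array-to-array spread that may be technical only. The 64 control probe sets were left out, as were probe sets whose geometric mean intensity was under 38.64, and the brightest of the probe sets paired with 1 gene stood for each gene (34945 probe sets had 1 gene, 932 several and 9160 none in the table used here). This left 10526 genes. NADA was compared with vehicle on log2 values with limma 3.58.1 in R 4.3.3 (lmFit, eBayes with an intensity trend, group only, two-sided), with Benjamini-Hochberg adjustment over all genes tested and calls at 0.05. Plots were drawn with matplotlib 3.10.9. The fit was also run on simulated data with few changed genes and no labelling difference between groups, unlike the data here.

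The members and gene lists were chosen with earlier results of these data known. Up to 4 genes of smallest p were named per list, 3 most alike per member and 3 neighbours per side. Matches to RefSeq gene identifiers were found for 34741 of the probe sets with 1 gene. The gene lists are described by counts and medians, and Sesn2 stands in 2 of them. Protein sequences were not used here. Alternatives covered quantile normalization, median centring, poly-A scaling, adding 32, a floor of 50, the dim filter, the joining of probe sets, the spread estimate, the threshold, a replicate block, and 1 array left out at a time. The number of arrays, 3 per group, limits the precision.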

Additional observations from a re-analysis of the deposited data

How the results depend on the processing

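The log2 fold change of Phlda1 ran from 1.98 to 2.18 when each array was left out in turn, that of Phlda2 from -0.32 to -0.16, and that of Phlda3 from -0.06 to 0.06. It moved by more than the spread between replicates with poly-A scaling (Phlda1 1.48, Phlda2 -0.83, Phlda3 -0.57), with 32 added before log2 (Phlda1 1.82) and with a floor of 50 (Phlda2 0). Under all the other alternatives named above the members moved by less than that spread. The number of genes called ran from 7363 to 7732 without 1 array (3543 to 3810 higher, 3769 to 3927 lower). It was 3031 with a minimum of 1.5-fold (1369 higher and 1662 lower), and the split was 733 higher and 8009 lower with poly-A scaling.

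Whether the replicate numbers pair the samples cannot be settled with 3 arrays per group. Same-numbered arrays deviated together with correlations of 0.17, -0.10 and 0.02. With the number as a block 7742 genes were called. The log2 fold change of Phlda1 was then 2.06 with a standard error of 0.07, against 0.08 without the block. Of 240 counts of list members recomputed, 216 stayed within 1.5 times. Of 678 values for 38 of the named genes other than the PHLDA genes, 644 kept direction and call, 23 lost the call, 1 gained it and 10 turned. With poly-A scaling those that turned were Skap2 (-0.033), Kcnq1ot1 (-0.061), Osbpl8 (-0.42), Bbs10 (-0.10), Slc22a18 (-0.18), Csrp1 (-0.42) and Spry1 (-0.37). Tnfrsf22, not called, was at 0.028 with array weights and ran from -0.090 to 0.099 with 1 array left out. Spry1, Csrp1 and Cars lost their call under several alternatives, each without at least 1 of the arrays. Signal near the dim limit restricts what can be said of Phlda2.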
